A study of Mus musculus with 6 samples.

Results

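Genes of the AP-1 family and other immediate early genes were examined for MafA binding and for the histone mark H3K4me3 in MIN6 cells. The 10 genes were Fos, Fosb, Fosl1, Fosl2, Jun, Junb, Jund, Atf3, Egr1 and Ier2, listed by function among 21900 protein-coding genes of the RefSeq gene table of GRCm38.p6. Every peak lying in the gene or within 50 kb on either side was taken, which gave 42 of 33013 peaks in MafA replicate 1, 61 of 42747 in MafA replicate 2, 50 of 16020 in H3K4me3 replicate 1 and 54 of 16904 in H3K4me3 replicate 2. MIN6 is a mouse line from an insulinoma, and secretes insulin in response to glucose. In all groups 500000 cells per sample were permeabilised with 0.01% digitonin and processed by CUT&RUN, in which an antibody directs a nuclease to its target in the nucleus and the released DNA fragments are sequenced. Antibodies to MafA made up one group, antibodies to H3K4me3 a positive control group, and IgG the negative control group, each with 2 replicates. The labels name no other treatment of the cells. The IgG libraries were not analysed here. The labels do not say whether replicates came from separate cultures, so an SD over 2 replicates may hold technical spread only.

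AP-1 is a dimer of basic leucine zipper proteins, usually one of the Fos and one of the Jun family, that binds the sequence TGACTCA. Fos, Jun, Egr1, Atf3 and Ier2 are immediate early genes: their transcription rises soon after a stimulus, without new protein synthesis, through factors already in the cell such as CREB and SRF. In beta cells, glucose, depolarisation and cyclic AMP are known stimuli of this kind. MafA is itself a basic leucine zipper protein, of the large MAF family, and activates the insulin genes. The longer element that MAF proteins recognise contains the AP-1 core, flanked by further bases.

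A MafA or H3K4me3 region was defined as the union of peaks that overlapped between both replicates of a target by at least 1 bp. Fold enrichment is the authors' value, the pileup at the peak summit over the background modelled there, and the strength of a region is given by the strongest peak of each replicate. Whole fragments at each summit were recovered from the deposited fold enrichment and p-value. A median summit held 25 and 46 fragments in MafA replicates 1 and 2, and 758.5 and 263 in H3K4me3 replicates 1 and 2. As a check of the cell type, H3K4me3 lay within 1 kb of a start at 9 of 10 beta cell marker genes, Ins1 being the exception, and at 1 of 10 marker genes of other cells (Gcg).

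All 10 genes had an H3K4me3 region within 1 kb of an annotated start, and 7 of the 10 also had a MafA region there: Fos, Fosb, Fosl2, Jun, Atf3, Egr1 and Ier2. Among all 21900 protein-coding genes, 57.0% had an H3K4me3 region and 19.8% a MafA region at a start. Among the 12474 protein-coding genes with H3K4me3 at a start, 33.4% had a MafA region there as well. Junb, Jund and Fosl1 had no MafA region at a start. Among equal numbers of the strongest peaks per library, Fos alone of the 10 kept one, against 4.31% of all protein-coding genes. With the window widened to the gene and 50 kb on either side, all 10 genes had a MafA region, as did 66.1% of all protein-coding genes and 84.2% of those with H3K4me3 at a start. The wider count therefore lies near the share of marked genes. The reference gave a strand for 7 genes. For Fosl1, Egr1 and Ier2 it gave none, and either gene end was taken as a start.

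The windows held 36 MafA regions and 50 H3K4me3 regions. A median of 4 MafA regions lay in the window of each gene, against 1 for all protein-coding genes and 2 for those with H3K4me3 at a start. For H3K4me3 the medians were 3.5, 2 and 3. Of the 36 MafA regions, 7 lay within 1 kb of a start of the listed gene itself, 9 only at the start of a neighbouring gene, and 20 away from any protein-coding start. The same split over all MafA regions was not computed.

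**Figure D1:**
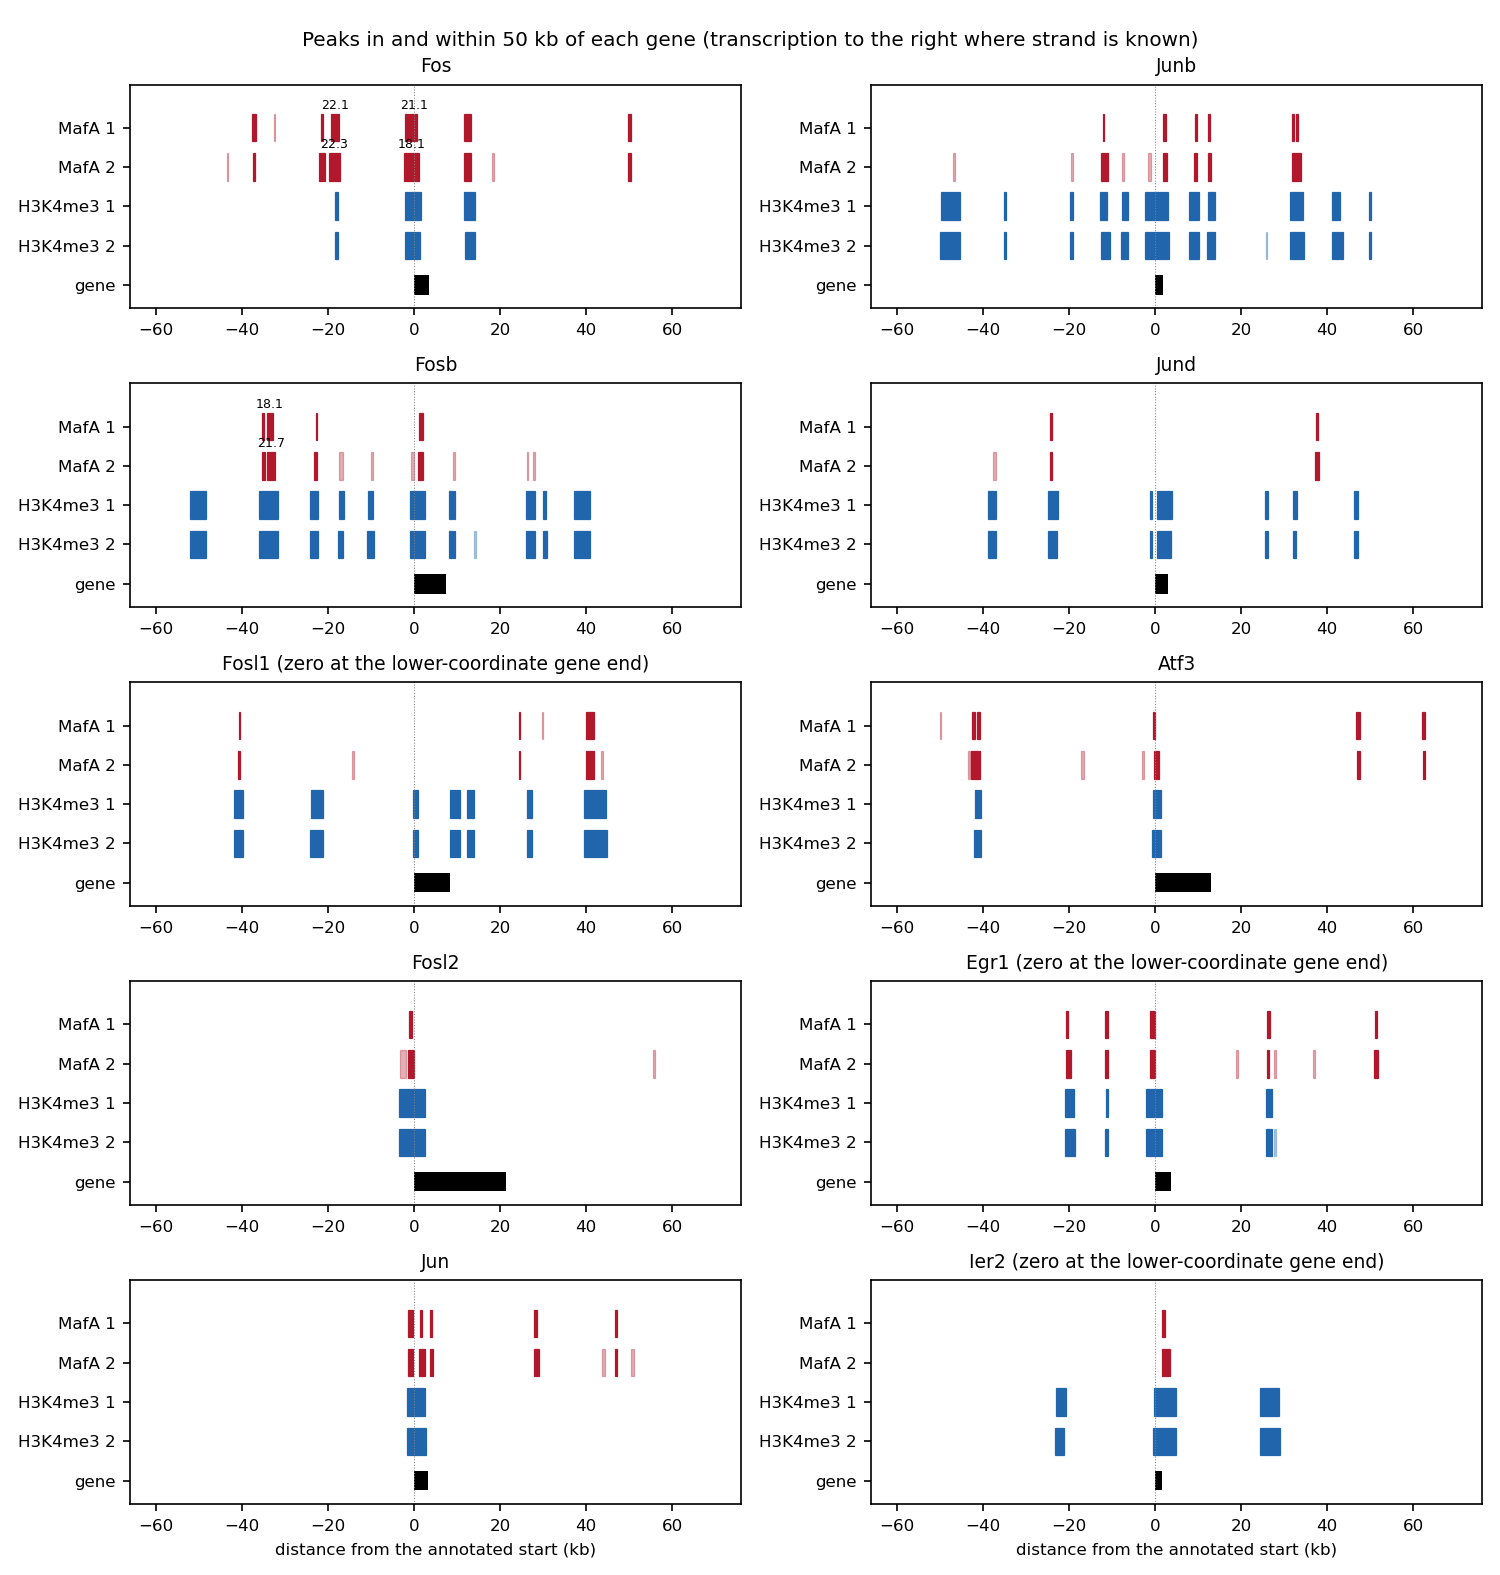
Peaks of the 4 libraries (bars, 1 lane per library, MafA red and H3K4me3 blue) by distance in kb from the annotated start of each gene (from the lower-coordinate end for Fosl1, Egr1 and Ier2), with the gene in black. Pale bars are peaks without a partner in the other replicate, and MafA fold enrichment of 15 or more is printed above its bar. Fos carries strong MafA peaks at its start and upstream, while Fosl2 and Ier2 carry 1 MafA region each.

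Fos, which encodes the founding member of the Fos family, stood apart from the other 9 genes in MafA strength. At its start, on chromosome 12 from 85471626 to 85475078, MafA reached a fold enrichment of 21.1 and, in the other library, 18.1 (19.6 ± 2.16, mean ± SD, n = 2). The summits lay at positions -216 and -192 relative to the start and held 584 and 1186 fragments. Both libraries were high there, well above the medians of 5.03 and 4.82 of their lists. Of 4345 protein-coding genes with a MafA region at a start, 21 had a higher mean, which put Fos at the 99.5th percentile. The value at a start had a median of 4.17 over those genes.

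A second strong region lay upstream of Fos, from 85453955 to 85456579, with summits at -18760 and -18781. Its fold enrichment was 22.1 and 22.3 (22.2 ± 0.109), from 332 and 626 fragments, and it was the highest of the 36 regions. An H3K4me3 region of 631 bp overlapped it, with fold enrichment of 4.34 and 5.48. Next to it, from 85451825 to 85453169, a region without H3K4me3 reached 10.2 and 12.1, with summits at -21475 and -21477. The Fos window held 3 further regions, with weaker signal. The one from 85485484 to 85487082, beyond the 3′ end, had values of 6.03 and 6.42 and overlapped an H3K4me3 region of 2667 bp with fold enrichment of 9.72 and 11.2. Fold enrichment was 6.01 and 5.26 from 85436048 to 85437027, and 3.55 and 3.76 from 85523606 to 85524196. No other protein-coding gene started within 1 kb of any of the 6 Fos regions. Of the 36 regions, 4 exceeded a fold enrichment of 10 (3 of them at Fos), a count near the share of 15.1% over all MafA regions.

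Requiring 50% reciprocal overlap between replicates ended the call at the Fos start. There replicate 1 had separate peaks of 946 and 1545 bp, and replicate 2 had 1 peak of 3453 bp across both.

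The remaining members of the Fos family had weak MafA regions or none at their starts. At Fosb, whose product dimerises with Jun proteins as Fos does, the region lay inside the gene, on chromosome 7 from 19307977 to 19309214, with fold enrichment of 4.61 and 4.24 (4.42 ± 0.261). Its summits were at 1554 and 1559 bp downstream of the start, within 46 and 35 bp of the H3K4me3 summits of the same replicate numbers. Over the Fosb start itself a peak was called in replicate 2 only, from 19310045 to 19310905, with fold enrichment of 5.08. The strongest MafA region in the Fosb window, 18.1 and 21.7 from 19342538 to 19344258, reached within 1 kb of the start of Ercc1, a DNA repair gene. Only its edge did so, as its summits lay at -1572 and -1589 relative to that start. Of the other 2 regions there, the one from 19332564 to 19333291 had a mean of 3.19, and the one from 19344762 to 19345373, also at the Ercc1 start, had 4.17.

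Fosl2, which encodes Fra-2, had a single MafA region, on chromosome 5 from 32134994 to 32136310. Its fold enrichment was 4.26 and 5.50 (4.88 ± 0.876), with summits at -904 and -935. At Fosl1, which encodes Fra-1, neither library had a MafA peak within 1 kb of either gene end. The 3 MafA regions in the Fosl1 window were nearer to other genes. The strongest, with fold enrichment of 6.88 and 7.02 on chromosome 19 from 5487617 to 5489562, lay at the starts of Mus81 and Cfl1.

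Jun, which encodes the partner that can also pair with itself, had 5 MafA regions, all of modest strength. The region at its start, on chromosome 4 from 95052521 to 95053735, had fold enrichment of 3.64 and 5.05 (4.34 ± 0.999), with summits at -760 and -867. Another, inside the gene from 95049773 to 95051090, had values of 3.39 and 3.95. One just beyond the 3′ end, from 95047827 to 95048647, had values of 3.39 and 4.54. The strongest Jun region lay far from the gene, from 95004976 to 95005573, with values of 5.60 and 7.96 from 18 and 48 fragments. The last, from 95023318 to 95024366, had 4.41 and 7.18 from 22 and 66 fragments. At all 5, replicate 2 gave the higher value, and the 3 regions beyond the 3′ end had no H3K4me3.

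Junb, whose product can restrain Jun, had its MafA region at the opposite end of the gene from the start. It lay on chromosome 8 from 84976016 to 84977028, across the 3′ end, with fold enrichment of 4.47 and 4.30 (4.38 ± 0.121) and summits 2303 and 2295 bp downstream of the start. Upstream of Junb a peak within 1 kb of the start was called in replicate 2 only, from 84979619 to 84980419, with fold enrichment of 3.07. The other 4 MafA regions of the window lay at the starts of Rtbdn, Rnaseh2a, Prdx2 and Hook2, with means of 3.89, 2.85, 3.97 and 3.09. Jund, the Jun gene known for steady expression, had no MafA peak in either library within 1 kb of its start. Its window held a region at the start of Lsm4, with 4.79 and 4.81, and one on chromosome 8 from 70734925 to 70735748 with 7.60 and 6.03.

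Atf3 encodes a stress-induced factor that binds CRE-type and AP-1 sites. At its start, on chromosome 1 from 191182475 to 191183803, MafA fold enrichment was 3.63 and 2.88 (3.25 ± 0.532), from 41 and 68 fragments. With 50% reciprocal overlap between replicates this call was lost. Its summits were 432 bp apart, at -181 for replicate 1 and 251 for replicate 2. Farther away, the strongest region, 5.28 and 8.15 from 191120584 to 191121214, was nearest to the start of Batf3. The region from 191223974 to 191226217 overlapped an H3K4me3 region outside any protein-coding start and had values of 5.90 and 4.48. The remaining one, from 191135680 to 191136592, had 4.26 and 6.49. The ranges of these 3 distal regions overlapped, so they had no order beyond their spread, and both values at the start lay below all of theirs.

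Egr1, a zinc finger factor of the same early response, had 5 MafA regions. The one at its lower-coordinate end, on chromosome 18 from 34860084 to 34861126, had fold enrichment of 4.17 and 3.68 (3.93 ± 0.347). Fragments at its summits numbered 252 and 546, exceeded in each library only by the 2 strongest Fos regions, while the modelled background there, 59.7 and 110, was the highest of all 36. Fragments and fold enrichment thus gave Egr1 different places, and the part played by the background was not tested. Among the other Egr1 regions, 1 lay at the start of Reep2, with a mean of 3.61, and 3 lay away from starts, with means of 3.92, 5.44 and 7.03. Ier2, which encodes a small nuclear protein, had 1 MafA region, on chromosome 8 from 84662970 to 84664777, beyond its higher-coordinate end. Its fold enrichment was 3.18 and 3.52 (3.35 ± 0.240), and it too was lost with 50% reciprocal overlap.

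**Figure D2:**
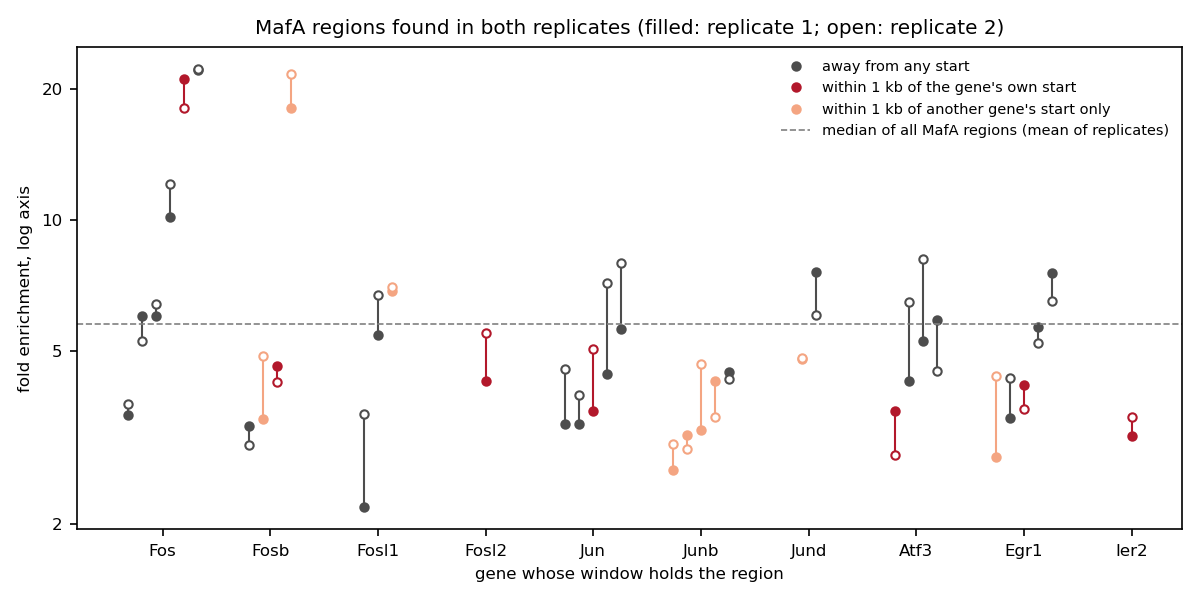
MafA fold enrichment (log axis) of the 36 regions found in both replicates, grouped by the gene whose window holds them and coloured by place (red, at the start of that gene; orange, only at the start of another; grey, away from starts). Filled points are replicate 1, open points replicate 2, joined by a line, and the dashed line is the median of all MafA regions, 5.75. The regions above 10 are 3 at Fos and the one in the Fosb window whose edge lies within 1 kb of the Ercc1 start.

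Across the 36 regions the median fold enrichment was 4.61, against 5.75 for all 25894 MafA regions. Without the 6 Fos regions it was 4.36. Of the 36, 20 were below 5 (all MafA regions: 36.7%). Outside the Fos and Fosb windows the highest mean was 7.03, in the Egr1 window. The share of all protein-coding windows without a higher region was not computed. Regions near a protein-coding start had a median of 4.07 and a median background of 23.5 and 34.9 in replicates 1 and 2. Regions away from starts had a median of 5.54 and a background of 5.26 and 8.98. In contrast, more fragments lay at summits near starts, with medians of 100 and 228, than away from them, with 32 and 74.5. The part of the background in this difference was not tested.

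H3K4me3 overlapped 25 of the 36 MafA regions, or 69.4% (95% Wilson interval 53.1 to 82.0%, counting error only). The interval takes the regions as independent, although they share 10 windows, so it may be too narrow. The share was 23.5% over all MafA regions and 29.7% over those in or within 50 kb of genes with H3K4me3 at a start. All 16 MafA regions near a protein-coding start overlapped H3K4me3, and so did 9 of the 20 away from starts. The first count is near its background. Of 4345 protein-coding genes with a MafA region at a start, 4102 had one there that overlapped H3K4me3. The share for all MafA regions away from starts was not computed. The part of nearness to starts in the difference between 69.4% and 29.7% was not tested. The 25 marked regions had a median fold enrichment of 4.17 and ranged from 2.85 to 22.2. The 11 unmarked ones had a median of 6.08 and ranged from 3.66 to 11.1. The same order held over all MafA regions, with 4.40 for marked and 6.14 for unmarked.

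**Figure D3:**
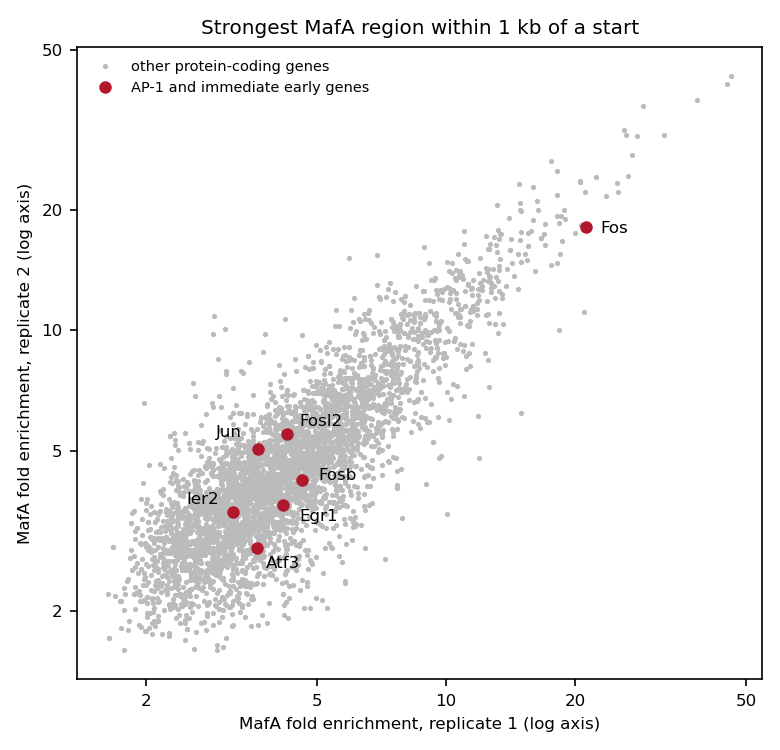
Fold enrichment of the strongest MafA region within 1 kb of a start in replicate 1 (x) and replicate 2 (y), both on log axes, for the 4345 protein-coding genes with such a region. Fos sits at 21.1 and 18.1 in the upper tail, and the other 6 labelled genes lie between 2.88 and 5.50 in the body of the cloud.

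The mark H3K4me3, which is deposited at the starts of active and poised genes, was broad at most of these genes. The widest H3K4me3 region at a start had a median width of 3710 bp over the 10 genes and 2173 bp over all 12474 marked genes. At 7 of the 10 it reached the 90th percentile of 3475 bp, which 10.0% of marked genes reach. Fosl2 had the widest, 6231 bp at the 99.4th percentile, and Junb followed with 5599 bp. Ier2 had 5207 bp, Jun 4412 bp, Egr1 3836 bp, Fos 3584 bp and Fosb 3506 bp. Jund fell just short with 3333 bp, and Fosl1 and Atf3 had common widths of 2208 and 2008 bp. The Jund region also lay within 1 kb of the start of Iqcn, and the other region at the Jund start was 540 bp wide. For Fosl1 the widest region lay at its higher-coordinate end, shared with the start of Ccdc85b, and the region at the other end was 1279 bp wide.

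Height did not follow width. The H3K4me3 region with the highest fold enrichment at a start had a median of 18.4 over the 10 genes and 17.8 over all marked genes. Egr1 was lowest of the 10, with 9.98 and 8.52 (12.8th percentile), although its region was wide. Fosb (12.1 and 12.1) and Fos (12.4 and 12.1) followed, at percentiles 22.2 and 22.8, and Atf3 had 12.8 and 13.2. Jund had the highest mean, from 29.6 in replicate 1 and 17.5 in replicate 2, so its place at the top rested on replicate 1. That region also lay within 1 kb of the start of Iqcn, with summits 1909 and 2389 bp downstream of the Jund start. The other region within 1 kb of the Jund start had 3.10 and 2.88. Jun (24.1 and 20.5) and Ier2 (24.1 and 20.6) nearly coincided, and in each library both lay above Fosl2 (20.1 and 17.4) and Junb (21.5 and 14.7). At Fosl1 the value was 20.9 and 18.3 at the end shared with Ccdc85b, and the mean was 11.2 ± 0.268 at the other end, so its place depends on which end is its start. The Fos start therefore combined one of the lower H3K4me3 enrichments with the highest MafA enrichment of the 10.

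**Figure D4:**
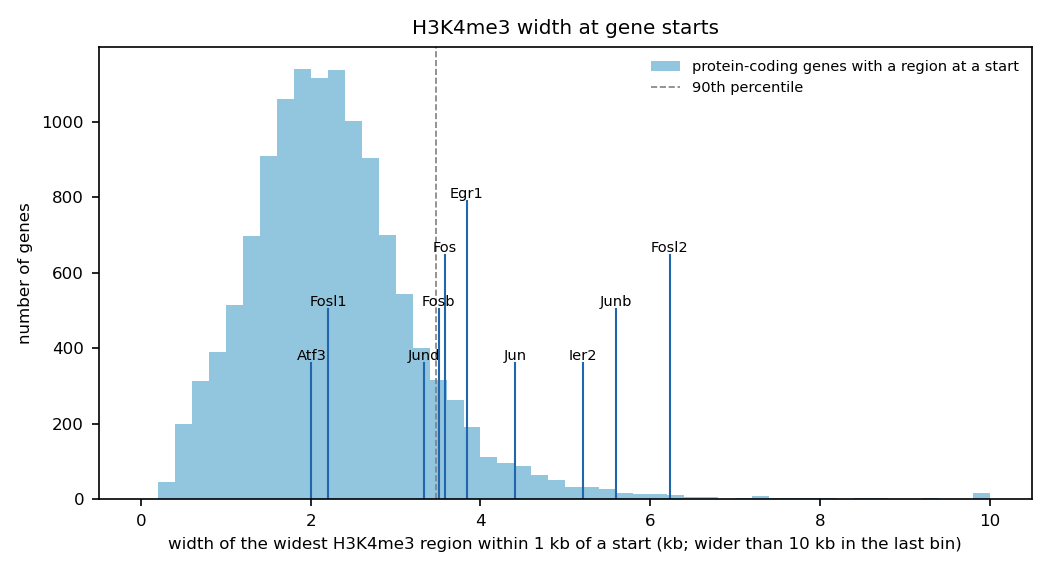
Histogram of the width in kb of the widest H3K4me3 region within 1 kb of a start, for 12474 protein-coding genes, with the 10 genes marked by vertical lines whose height carries no meaning. The dashed line is the 90th percentile, 3475 bp, and 7 of the 10 genes lie at or beyond it.

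Where MafA and H3K4me3 met at a start, their summits took different positions. At Fos the MafA summit lay 581 and 520 bp from the H3K4me3 summit, which was inside the gene at 365 and 328 bp. At Jun the distance was 2033 and 2170 bp, with MafA upstream and H3K4me3 inside the gene at 1273 and 1303 bp. Fosl2 had 1032 and 516 bp, and Ier2 had 873 and 950 bp. At Fosb and Egr1 the summits nearly coincided, at 46 and 35 bp and at 59 and 47 bp. At Atf3 the distance was 475 bp in replicate 1 and 35 bp in replicate 2.

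Sequences before the start are shown for the 4 genes in which a MafA peak reached the last 250 bases upstream, from the RefSeq promoter table of GRCm38.p6, which matched 7 of the 10 genes. The Fos stretch is chr12:85473640-85473889 on the plus strand and holds both MafA summits, at bases 35 and 59 counted from its 5′ end. Atf3 is chr1:191183334-191183583 on the minus strand, reached by peaks of both replicates, with the replicate 1 summit at base 70. Fosb is chr7:19310046-19310295 on the minus strand, reached by replicate 2 only, with the summit at base 84. Fosl2 is chr5:32136222-32136471 on the plus strand, of which 89 bases lay under a replicate 2 peak. Capitals mark TGACG, the core of the cyclic AMP response element (CRE), or CGTCA on the other strand.
Fos: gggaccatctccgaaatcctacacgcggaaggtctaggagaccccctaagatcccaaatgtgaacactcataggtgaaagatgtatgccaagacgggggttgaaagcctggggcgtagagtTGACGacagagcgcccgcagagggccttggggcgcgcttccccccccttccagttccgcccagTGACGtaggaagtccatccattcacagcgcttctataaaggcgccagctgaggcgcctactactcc
Atf3: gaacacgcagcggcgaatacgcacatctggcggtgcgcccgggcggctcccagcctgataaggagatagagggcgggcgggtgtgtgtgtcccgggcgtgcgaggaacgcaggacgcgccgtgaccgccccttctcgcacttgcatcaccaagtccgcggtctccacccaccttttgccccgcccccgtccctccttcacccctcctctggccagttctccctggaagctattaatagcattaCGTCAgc
Fosb: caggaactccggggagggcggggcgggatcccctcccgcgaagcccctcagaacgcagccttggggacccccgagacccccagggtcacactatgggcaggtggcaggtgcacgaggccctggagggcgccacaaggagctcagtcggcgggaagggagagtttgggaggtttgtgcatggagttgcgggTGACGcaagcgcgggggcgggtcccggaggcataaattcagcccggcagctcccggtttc
Fosl2: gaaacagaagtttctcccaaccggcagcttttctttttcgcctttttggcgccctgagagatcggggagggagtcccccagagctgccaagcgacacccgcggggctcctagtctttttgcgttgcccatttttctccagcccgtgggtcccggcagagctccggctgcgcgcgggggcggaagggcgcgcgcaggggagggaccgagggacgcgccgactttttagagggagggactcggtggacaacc

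The CRE core TGACG was present on either strand in 4 of the 7 promoters with a sequence, those of Fos, Fosb, Junb and Atf3, against 17.7% of 32817 promoter stretches of the same length. The first base lay at -129 and -66 at Fos, -60 at Fosb, -106 at Junb and -7 at Atf3, relative to the start. This motif was added after the sequences had been seen. None of the 7 stretches held TGACTCA (the AP-1 site, in 4.46% of all promoters), TGACGTCA (the full CRE, 1.55%), TGCTGAC (the MAF core, 3.81%), either of the full palindromic MAF elements (0.00609% each), GCGTGGGCG (an EGR site, 0.536%) or the CArG box bound by SRF (1.47%). TGACG lies within TGACGTCA, TGACTCA can lie within a full MAF element, and both strands were searched. Matches were to the exact letters, so variants of a site were not counted. The Jun stretch, for example, holds TGACATCA, with A for G within TGACGTCA. Bases more than 250 upstream of a start were not searched, nor were Fosl1, Egr1 and Ier2. Sites outside these limits may therefore have been missed. The 7 stretches were 47.6 to 68.8% G and C, against a median of 52.4% over all promoters, and shares were not adjusted for base composition.

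The wider pathway was followed in lists of related genes. Of 25 other immediate early genes, 23 had H3K4me3 and 16 had MafA at a start, and 23 had a MafA region within 50 kb. The shares over all protein-coding genes were the 57.0%, 19.8% and 66.1% above. Among those with H3K4me3 at a start, 33.4% had MafA at a start and 84.2% within 50 kb. The wider count lies near the latter share. In this list MafA was strongest near Maff and Ier3, whose values had no order beyond their spread. Maff, which encodes a small MAF protein, had 30.7 and 32.2 at 12423 bp outside the gene, and 12.0 and 15.2 at its start. Near Ier3 the values were 32.2 and 30.7, in a region at the start of the neighbouring Tubb5, against 4.39 and 4.81 at the start of Ier3. Klf2 had 18.5 and 24.9 at 7110 bp from the gene. At starts, MafA reached 9.20 and 9.06 at Myc, 7.89 and 8.54 at Trib1, 7.16 and 8.73 at Dusp1 (a phosphatase that switches off MAP kinases), 7.75 and 7.17 at Klf10 and 6.72 and 7.12 at Per1. All of these start values were below those of Fos. H3K4me3 reached the 90th percentile of width at 6 of the 23 marked genes.

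Of 12 genes for AP-1 partners and related leucine zipper proteins, 10 had H3K4me3 and 3 had MafA at a start (Atf7, Crem and Bach1), and all 12 had a MafA region within 50 kb. The count with MafA at a start is near its background, 19.8% of all protein-coding genes and 33.4% of those with H3K4me3 at a start. Within 50 kb the shares of these sets were 66.1% and 84.2%, and 57.0% of all protein-coding genes had H3K4me3 at a start. Bach1, whose product pairs with small MAF proteins, had the region of highest mean, with 20.9 and 26.6 at 32998 bp outside the gene. Atf1 had 21.1 and 16.7 at 37952 bp, a range that overlapped that of Bach1. Atf7 followed with 9.72 and 13.9 inside the gene. Values at starts were 3.90 and 4.55 at Atf7 and 6.46 and 3.56 at Bach1, with a mean of 3.41 at Crem. Of 14 upstream regulators, all had H3K4me3 and 4 had MafA at a start, and 11 had a MafA region within 50 kb. Both MafA counts are near the 33.4% and 84.2% of genes with H3K4me3 at a start. Mapk10, which encodes the neuronal and islet JNK kinase, had the region of highest mean, 30.4 and 23.6 inside the gene, and 9.62 and 12.0 at a start. Elk1, a partner of SRF, had 23.0 and 25.3 at 17532 bp outside the gene and 4.33 and 3.53 at its start. The ranges of the strongest Mapk10 and Elk1 regions overlapped, so their order was not beyond the spread between replicates. Mapk3 had 8.43 and 7.68 at 10263 bp outside the gene and none at its start, while Mapk14 and Elk4 had start values of 4.57 and 4.33 and of 3.15 and 2.39.

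Peaks without a partner in the other replicate made up the rest of the windows. MafA replicate 1 had 3 of them among its 42 peaks, with a highest fold enrichment of 4.18. MafA replicate 2 had 25 among its 61 peaks, with a median of 3.07 and a highest value of 5.59, in the Jun window. The matched peaks of replicate 2 had a median of 4.84. H3K4me3 had none among 50 peaks in replicate 1 and 3 among 54 in replicate 2, at most 4.89. Summits of the replicates lay within 100 bp of each other at 23 of the 36 MafA regions (median 61 bp) and at 42 of the 50 H3K4me3 regions (median 29.5 bp). The same shares over all peaks and regions are not given here, so whether this agreement is usual for the lists is open.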

How the data were processed

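Peaks came as 4 narrow peak lists, each for a single MafA or H3K4me3 library. MACS2 and GRCm38 (mm10) are named in the submitters' processing notes. The aligner, control library, duplicate handling and MACS2 version are not given in the sources used here. Libraries were 150 bp paired-end, per the labels' protocols. Fold enrichment, as deposited, is the ratio of the summit pileup to the modelled background on a linear scale. Significance was deposited as −log10 p-value and −log10 q-value, the latter at least 2.00. The deposited score was not used.

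The software was scipy 1.17.1, pandas 2.3.3, numpy 2.4.6 and, for plots, matplotlib 3.10.9, under Python 3.11.15. Regions, windows (50 kb; 1 kb at starts) and percentiles were computed as the report states. Starts came from the RefSeq promoter table, or from both gene ends where it had no entry. Fragments were recovered by finding a pileup scaling factor between 0.2 and 1 that gave back −log10 p within a relative tolerance of 1e-04, with a pseudocount of 1 in the fold. The factors were 1 and 0.746 for MafA replicates 1 and 2, and 0.415 and 0.997 for H3K4me3, and solved 99.9% of peaks in H3K4me3 replicate 1 and 100% in the other lists. Tested on simulated data of 3000 peaks per factor, it returned the right fragments for 99.97%, 99.8% and 99.8% of peaks made with factors of 1, 0.75 and 0.42. Samples were grouped by their titles.

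The genes and lists were chosen with earlier results of these data known. All 10 genes were described. From each list of related genes, the 3 with the strongest MafA region within 50 kb were named, then those with MafA at a start, strongest first, up to 8 in all. Alternatives changed the q threshold, number of peaks, overlap, merging, windows, ranking and replicates used. No p-value was computed.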

Additional observations from a re-analysis of the deposited data

How the results depend on the processing

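The use of either gene end as a start for every gene and the motif TGACG were chosen after seeing the data. All 10 genes kept H3K4me3 at a start under each of the 9 alternatives run for it. Of all protein-coding genes, 56.5% had H3K4me3 at a start at a −log10 q of at least 5, and 57.5% without H3K4me3 replicate 1. The number of genes with a MafA region at a start, 7, dropped to 4 with 50% reciprocal overlap. The share of all protein-coding genes dropped from 19.8% to 14.5%. It dropped to 4.31% when each list was held to its 16020 peaks of highest fold enrichment, which left Fos alone of the listed genes. With 50% overlap Fosb, Fosl2, Jun and Egr1 remained. The number was 8 without MafA replicate 1 (all protein-coding genes: 33.2%) and 6 without replicate 2 (21.1%), where Fosb was lost. It was 6 with 500 bp and 8 with 2 kb at the start, and 8 with either gene end. For these settings the share of all protein-coding genes is not given here, so the counts have no background. At a −log10 q of at least 5 (17.3%) or with peaks within 1 kb merged (20.1%) the number of genes with a MafA region at a start was 7. Genes with a MafA region within 50 kb numbered 7 to 10 over all alternatives. They were 7 among the strongest peaks (all protein-coding genes: 41.9%), 9 with 50% overlap (60.2%) and 10 without MafA replicate 1 (76.6%). The shares with 10 kb and 100 kb on either side are not given here. The number of MafA regions, 36, was 11 among the strongest peaks, 12 with 10 kb and 57 with 100 kb on either side, as fewer or more peaks entered, and 42 to 61 with a replicate of MafA left out. The share of MafA regions over H3K4me3, 69.4%, was 45.5% among the strongest peaks (all MafA regions: 13.1%) and 62.3 to 69.4% with a replicate left out. Counts of H3K4me3 regions stayed between 46 and 54. For single genes, the MafA or H3K4me3 fold enrichment moved beyond the spread of the replicates in 18 of 150 cases, not counting those that leave out a replicate, whose value is that of the other replicate. Filters on peaks leave the deposited value of a kept peak unchanged, so many of these cases had little room to move. The count is thus no measure of stability. In 16 further cases (1 of them a left-out replicate) the region was lost, 9 of them among the strongest peaks. The strongest region became that at the start for Fos, Jun and Egr1 when ranked by −log10 q or by fragments. Ranked so, Jund's was that at Lsm4 and Atf3's one with a mean of 5.19, and by fragments Junb's was that at Prdx2. With 100 kb on either side Fosl2 gained a region of 15.9 and Jund one of 10.6. No paired analysis was possible because the results are counts and values with no test. The 25 and 46 fragments of a median MafA summit limit what weak peaks can show.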

Other observations

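Outside the listed genes, 21 protein-coding genes had a higher mean MafA fold enrichment at a start than the 19.6 of Fos. Counting only MafA regions that also overlapped H3K4me3, 4102 genes had one at a start, and 13 of these exceeded Fos. Per2, a component of the circadian clock, led them with 38.5 in replicate 1 and 37.5 in replicate 2, and Tubb5, a tubulin gene, followed with 32.2 and 30.7. For Per2 the reference gave no strand, so its region may lie at either gene end. Pdx1, a homeodomain factor that beta cells need, had a mean of 21.6, and Noct, a rhythmic gene, had 17.6 and 26.4. Ercc1, in the Fosb window, had 18.1 and 21.7, with summits at -1572 and -1589, so only the edge of its region lay within 1 kb of the start. The ranges of Pdx1, Noct, Ercc1 and Fos (21.1 and 18.1) overlapped, so their order was not beyond the spread between replicates. Of all genes, Tuft1 (46.1 and 43.1) and Cars (45.1 and 41.2) had the highest values, with overlapping ranges, in regions without H3K4me3, and for both the region may likewise lie at either gene end. Just below Fos lay Jakmip1 with 20.7 and 18.3 and Zbtb6 with 18.9 and 19.9.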
